A study of Mus musculus with 4 samples.

Results

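Cardiomyocyte nuclei without Ankrd1 and Nppb transcripts were followed in single-nucleus RNA libraries from mouse ventricles. Ankrd1 encodes a muscle ankyrin repeat protein that binds titin at the sarcomere and also acts as a transcription cofactor, and Nppb encodes B-type natriuretic peptide. Both RNAs are low in the resting adult ventricle and are induced by stretch and overload, so they are widely used as marks of stressed myocardium. The nuclei were chosen by their measured counts of UMIs (unique molecular identifiers, which mark single captured RNAs). Each had 300 or more detected genes, no more than 20% of its UMIs from mitochondrial genes, at least 1.5% of its non-mitochondrial UMIs from Ttn plus Ryr2, under 0.15% from the fibroblast genes Pdgfra, Col1a2 and Dcn and under 0.15% from the endothelial genes Flt1, Ptprb and Pecam1, at least 2000 UMIs, and 0 or 1 UMI of Ankrd1 plus Nppb. This gave 1144 nuclei of 19806 barcodes in the deposited matrices, out of 2152 cardiomyocyte nuclei that met every condition but the last. The 1008 nuclei with 2 or more UMIs of Ankrd1 plus Nppb are called the other cardiomyocytes.

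All mice were wild type on the C57BL/6J background, males and females, and were 8 weeks old at the start. The running infarct library held 4 hearts from mice that had 16 weeks of voluntary wheel running and were then taken 2 weeks after infarct surgery, and the sedentary infarct library held 4 hearts taken 2 weeks after the same surgery with no wheel before it. The running library held 2 hearts after 16 weeks of running without surgery, and the sedentary library 2 hearts without either. Each group was a single library of pooled ventricles, so hearts within a group cannot be told apart, nuclei of a library are not replicates, and differences between groups have no replicate check and were not tested. Library totals ran from 26170995 to 37533722 UMIs. The counted nuclei held 333883 non-mitochondrial UMIs in the running infarct, 768314 in the sedentary infarct, 3451052 in the running and 5906671 in the sedentary library, so values of the infarct libraries, and of the running infarct library most of all, are the least precise. Levels are UMIs per 1e+06 non-mitochondrial UMIs of the summed nuclei (CPM), given with exact 95% intervals that cover counting error only. A 3' assay counts RNA ends, so levels of different genes were not compared.

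The promoters of the genes that set the nuclei apart are shown first, with those of a pair of heat shock genes whose levels moved together with others of their list. They are the 250 bases before the annotated start from the RefSeq table of build GRCm38.p6, which is not the build of the deposited matrices, read 5' to 3' on the gene's strand. Capitals in the Ankrd1 and Nppb promoters mark the M-CAT motif CATTCC, read on the other strand as GGAATG, the GATA motif AGATAA, read on the other strand as TTATCT, and the TATA box TATAAA. M-CAT motifs are bound by TEAD factors and GATA motifs by GATA factors such as Gata4. Capitals in the Hsph1 and Hspe1 promoters mark the heat shock element searched as GAANNTTC or TTCNNGAA, the kind of site heat shock factor binds.
Ankrd1, chr19:36119845-36120094, minus strand: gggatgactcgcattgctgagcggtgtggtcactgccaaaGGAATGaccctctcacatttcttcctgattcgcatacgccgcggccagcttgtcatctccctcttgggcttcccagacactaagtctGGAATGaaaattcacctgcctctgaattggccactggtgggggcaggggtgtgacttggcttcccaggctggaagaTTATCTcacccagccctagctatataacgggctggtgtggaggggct
Nppb, chr4:147985650-147985899, plus strand: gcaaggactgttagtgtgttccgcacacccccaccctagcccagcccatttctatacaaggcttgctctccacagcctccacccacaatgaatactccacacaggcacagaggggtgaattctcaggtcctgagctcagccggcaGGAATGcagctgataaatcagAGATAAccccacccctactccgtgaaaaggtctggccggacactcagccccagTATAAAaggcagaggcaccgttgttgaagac
Hsph1, chr5:149636337-149636586, minus strand: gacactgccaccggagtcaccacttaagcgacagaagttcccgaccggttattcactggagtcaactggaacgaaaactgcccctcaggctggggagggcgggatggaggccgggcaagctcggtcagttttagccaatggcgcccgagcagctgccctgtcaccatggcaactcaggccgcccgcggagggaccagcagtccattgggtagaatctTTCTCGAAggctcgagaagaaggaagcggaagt
Hspe1, chr1:55087898-55088147, plus strand: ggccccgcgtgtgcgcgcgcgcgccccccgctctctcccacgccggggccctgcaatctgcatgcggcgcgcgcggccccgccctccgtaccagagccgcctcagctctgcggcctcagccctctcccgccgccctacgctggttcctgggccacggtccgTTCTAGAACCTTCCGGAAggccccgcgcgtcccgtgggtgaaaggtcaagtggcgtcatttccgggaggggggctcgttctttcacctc
Ankrd1 had M-CAT matches at -210 to -205 and at -123 to -118 from the start and a GATA match at -47 to -42. Nppb had an M-CAT match at -105 to -100, a GATA match at -84 to -79 and a TATA box at -31 to -26. The Hsph1 element lay at -33 to -26, and the 3 overlapping Hspe1 elements began at -89, -84 and -79. On either strand of 32851 promoters of the same length, CATTCC was found in 12.6%, AGATAA in 9.99%, TATAAA in 12.4% and either heat shock element in 12.8%. A match is a run of letters and not a shown binding site.

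The nuclei without both RNAs made up a smaller share of cardiomyocyte nuclei in both infarct libraries. They were 56 of 258 cardiomyocyte nuclei in the running infarct library, or 21.7% (16.8 to 27.2), and 92 of 355 in the sedentary infarct library, or 25.9% (21.4 to 30.8). Without infarct they were 388 of 691 in the running library, 56.2% (52.4 to 59.9), and 608 of 848 in the sedentary library, 71.7% (68.5 to 74.7). The order was running infarct, sedentary infarct, running and sedentary from low to high, and the intervals of the infarct libraries overlapped each other but not those of the other libraries. With every cardiomyocyte nucleus thinned to 2000 UMIs, the share with no Ankrd1 or Nppb UMI was 29.5% in the running infarct, 35.8% in the sedentary infarct, 65.3% in the running and 78.9% in the sedentary library. These shares restate the values that chose the nuclei and are given as a description.

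**Figure D1:**
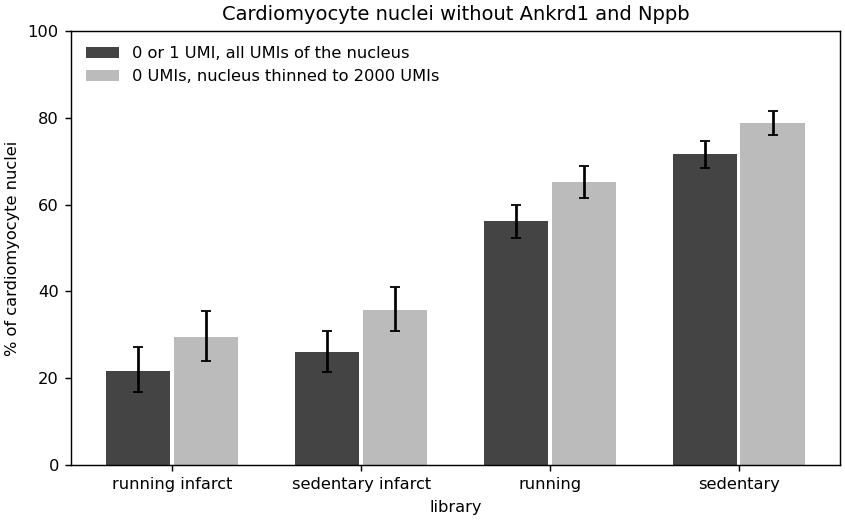
Share of cardiomyocyte nuclei with 0 or 1 UMI of Ankrd1 plus Nppb (dark bars) and share with 0 UMIs after each nucleus was thinned to 2000 UMIs (light bars), in percent, for the 4 libraries. Error bars are exact 95% binomial intervals. The dark bars stand at 21.7% in the running infarct, 25.9% in the sedentary infarct, 56.2% in the running and 71.7% in the sedentary library.

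Just inside the limit, 23, 43, 132 and 149 of the nuclei had exactly 1 UMI in the running infarct, sedentary infarct, running and sedentary libraries, and just outside it 21, 16, 65 and 65 nuclei had 2. The median of Ankrd1 plus Nppb among the other cardiomyocytes was 12 UMIs in the running infarct, 20 in the sedentary infarct, 5 in the running and 4 in the sedentary library, so the nuclei outside the limit were not alike across libraries. Free RNA also counts here: 11.7% of endothelial nuclei in the running infarct and 9.33% in the sedentary infarct library had 2 or more such UMIs, against 1.85% in the running and 1.02% in the sedentary library, at median depths of 3269.5, 3332.5, 3427 and 3144.5 UMIs. Endothelial nuclei had 2000 or more UMIs, with at least 0.5% of non-mitochondrial UMIs from Flt1, Ptprb and Pecam1 and under 1% from Ttn plus Ryr2. Fibroblast and macrophage genes each gave under 0.15%. Free RNA levels read from them may be held down by that choice. The part of free RNA in the shares was not tested. Males and females were pooled, so nuclei were also split by Y-linked RNA: those with 2 or more such UMIs are called Y-positive and those with none Y-negative, although a shallow male nucleus can have none. Of the nuclei without Ankrd1 and Nppb, 8, 30, 203 and 260 were Y-positive and 44, 56, 147 and 283 Y-negative in the running infarct, sedentary infarct, running and sedentary libraries. The share without Ankrd1 and Nppb was 12.7, 27.0, 51.7 and 66.7% of Y-positive and 25.1, 25.5, 62.6 and 77.1% of Y-negative cardiomyocyte nuclei in the running infarct, sedentary infarct, running and sedentary libraries.

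The label was checked against cardiomyocyte markers. Ttn, the giant spring protein of the sarcomere, and Ryr2, the calcium release channel, are set by the rule. Myh6, the adult myosin heavy chain, stood at 9470 CPM in the running infarct, 11320 in the sedentary infarct, 10410 in the running and 8711 CPM in the sedentary library. Trdn, a partner of the release channel, stood at 5798, 5452, 6419 and 5885 CPM, and Rbm20, the splicing factor of titin, at 4657, 4415, 4412 and 4093 CPM in the same order. At least 92.9% of the nuclei in each library had a UMI of Trdn and of Rbm20, against 13.9 to 32.7% and 10.6 to 25.1% of endothelial nuclei. Both sets of nuclei were chosen by their Ttn plus Ryr2 share, so this contrast was partly fixed in advance. A Myh6 UMI was found in 98.9% or more, but also in 72.2 to 85.8% of endothelial nuclei, so its detection says little of identity. Endothelial nuclei were shallower, and after thinning to 2000 UMIs the lowest shares were 92.9% for Trdn and 89.3% for Rbm20, against at most 21.1% and 16.8% of endothelial nuclei. The label fits these markers over all nuclei together, but some nuclei also carried RNA of other cells: 4 of the 8 expression groups, with 31, 92, 81 and 6 nuclei (2.71, 8.04, 7.08 and 0.524% of all), were led by F13a1 and Mrc1, by Ebf2 and Gpc6, by Emcn and Bmx and by Gpm6a, and 32.3, 59.8, 58.0 and 83.3% of their nuclei ranked among likely doublets.

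Markers of other cells were also detected. The fibroblast list holds Pdgfra, Col1a2 and Dcn and the endothelial list Flt1, Ptprb and Pecam1. The rule capped these genes, so both sums were partly fixed by selection. In nuclei chosen for fibroblast markers the fibroblast list summed to 18434, 18142, 18022 and 16843 CPM in the order given next. In endothelial nuclei it summed to 2015, 2093, 1870 and 1764 CPM. The 12 fibroblast markers summed to 2585, 2133, 2200 and 1865 CPM, with 0 of them at 0, and the 12 endothelial markers to 677, 444, 849 and 848 CPM, with 0 at 0, in the running infarct, sedentary infarct, running and sedentary libraries. The 10 macrophage markers summed to 300, 385, 236 and 184 CPM, with Cd163 at 0 in the running infarct library and 0 at 0 in the other libraries. The 8 lymphocyte markers summed to 83.9, 44.3, 21.2 and 17.4 CPM, with 3, 3, 2 and 1 of them at 0. Other-cell markers took 0.25% or more of the UMIs in 32.1, 21.7, 26.5 and 19.6% of the nuclei, against 31.2, 19.8, 21.5 and 20.8% of the other cardiomyocytes. With those nuclei left out of both kinds, an alternative added after the data were seen, the shares without Ankrd1 and Nppb were 21.5, 25.4, 54.5 and 72.0%. Summed over the pairs of libraries, 46 cell barcodes were shared, and 0 of these were counted nuclei in both libraries of a pair.

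The nuclei were then set against the other cardiomyocytes of the same library, which asks what else differed between cardiomyocytes with and without these stress transcripts. Counts were summed per library and kind, and the 4 libraries served as blocks in edgeR's quasi-likelihood test, with Ankrd1, Nppb and mitochondrially encoded genes left out. Of 13499 genes tested, 129 were higher, or 0.956%, and 181 were lower, or 1.34%, in nuclei without Ankrd1 and Nppb at an adjusted p under 0.05. The median log2 fold change over all tested genes was -0.0025. Each SE given below is the size of the log2 fold change over the square root of the test's F statistic. It is not a spread measured over the libraries. The nuclei were shallower than the other cardiomyocytes, with median UMIs of 6193 against 9784 in the running infarct, 8479.5 against 12040 in the sedentary infarct, 9013.5 against 10568 in the running and 8796.5 against 10528 in the sedentary library. Among nuclei of either kind with 4000 to 12000 UMIs, 25 genes were higher and 65 lower, and of 297 called genes that could be tested 69 were still called and 253 kept their direction. This window held fewer nuclei, 37, 61, 266 and 420 without Ankrd1 and Nppb in the same order of libraries. They were still the shallower, with medians of 6388 against 8809, 8104 against 9449, 8235.5 against 8803 and 8047 against 8840 UMIs. Among nuclei with other-cell markers under 0.25%, 53 were higher and 107 lower, and 120 of 303 were still called. Without the sedentary library the test called 31 higher and 29 lower. Of the 52 called genes named here or checked with them, 22 were still called at 4000 to 12000 UMIs, 34 with other-cell markers under 0.25% and 24 without the sedentary library.

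Of 16 tested stress and fetal genes that the rule did not use, 5 were lower in these nuclei, 0 were higher and 11 did not pass the test, with a list median log2 fold change of -0.30. Over all tested genes, 0.956% were higher and 1.34% lower. Xirp2, a repeat protein of the intercalated disc, stood at 428 CPM in the running infarct, 428 in the sedentary infarct, 405 in the running and 456 CPM in the sedentary library, against 1159, 865, 416 and 483 CPM in the other cardiomyocytes. Its log2 fold change was -0.49 ± 0.13 (SE, edgeR adjusted p = 0.038), lower in 4 of 4 libraries. The levels of Xirp2 were close to even in both libraries without infarct and far apart in both with infarct. A few nuclei carried much of that height: 10 nuclei held 40.4% of the Xirp2 UMIs of the other cardiomyocytes in the running infarct and 34.7% in the sedentary infarct library, against 13.9% in the running and 16.8% in the sedentary library. Enah, an actin regulator also raised in failing hearts, differed by -0.49 ± 0.10 (SE, edgeR adjusted p = 0.00594), with 467 against 985 CPM in the running infarct, 367 against 712 in the sedentary infarct, 328 against 367 in the running and 366 against 431 CPM in the sedentary library. Ankrd23, a relative of Ankrd1 that also binds titin, stood at 44.9 against 204 CPM in the running infarct, 19.5 against 92 in the sedentary infarct, 31.0 against 47.0 in the running and 85.7 against 147 CPM in the sedentary library. Its log2 fold change was -1.0 ± 0.15 (SE, edgeR adjusted p = 0.000273).

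The remaining called members of the list were Nppa, the atrial natriuretic peptide gene, at -1.58 ± 0.15 (SE, edgeR adjusted p = 5.12e-07), and Acta1, skeletal alpha-actin, at -0.79 ± 0.16 (SE, edgeR adjusted p = 0.0051). Nppa stood at 59.9, 70.3, 5.22 and 5.59 CPM in nuclei without Ankrd1 and Nppb of the running infarct, sedentary infarct, running and sedentary libraries, and at 89.2, 168, 10.9 and 11.5 CPM in endothelial nuclei of the same libraries. Those levels are at or below the background that free RNA gives. Acta1, at 56.9, 50.8, 14.5 and 9.65 CPM, was likewise near its endothelial levels of 42.2, 53.6, 12.5 and 9.97 CPM. Myh7, the slow myosin heavy chain that rises in failing rodent hearts, stood at 1477, 1194, 1432 and 1200 CPM and at 1590, 1408, 1385 and 1145 CPM in the other cardiomyocytes, a log2 fold change of -0.01 ± 0.06 (SE, edgeR adjusted p = 0.987).

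**Figure D2:**
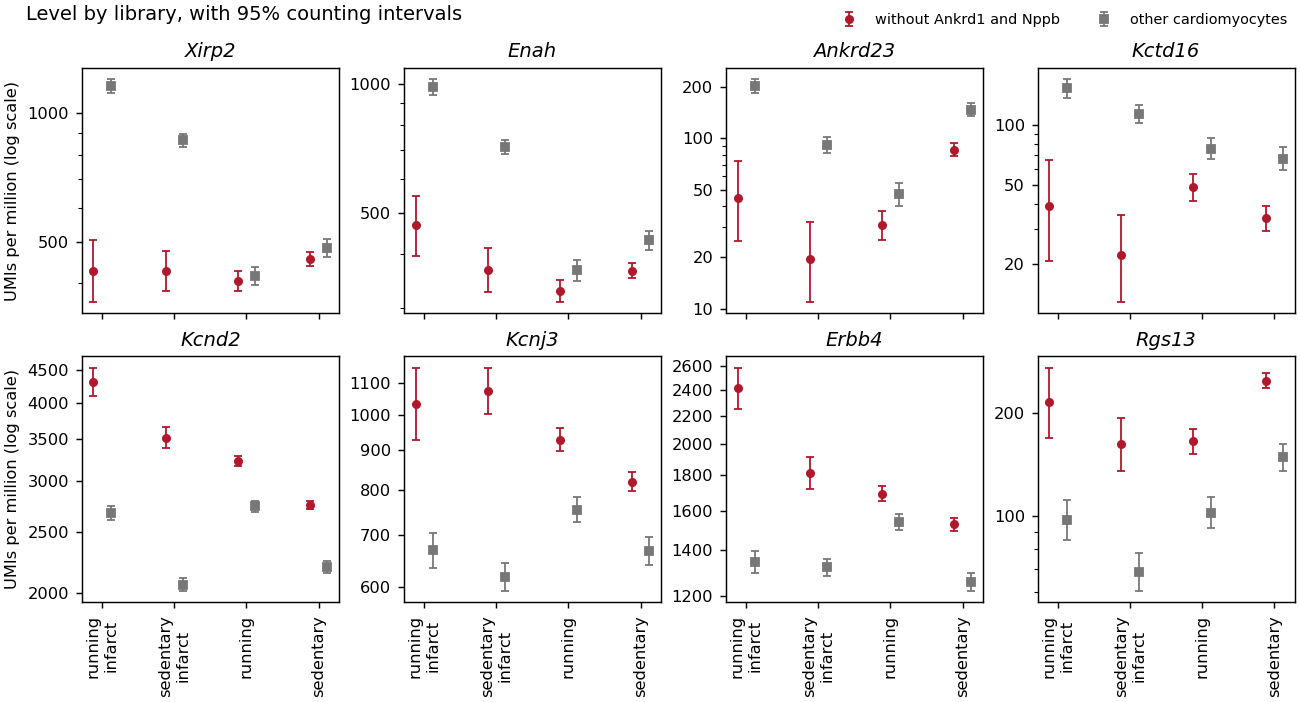
Level of 8 genes in nuclei without Ankrd1 and Nppb (circles) and in the other cardiomyocytes (squares), in CPM on a log scale, for the 4 libraries. Bars are exact 95% Poisson intervals of the counts. For Xirp2 and Enah the circles stay between 328 and 467 CPM, while the squares reach 1159 and 985 CPM in the running infarct library. For Kcnd2, Kcnj3, Erbb4 and Rgs13 the circles lie above the squares in every library.

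Genes of the membrane currents and of calcium handling were among those higher. Kcnd2, a pore subunit of the transient outward potassium current, stood at 4316 CPM in the running infarct, 3518 in the sedentary infarct, 3233 in the running and 2754 CPM in the sedentary library, against 2672, 2061, 2742 and 2199 CPM in the other cardiomyocytes. Its log2 fold change was 0.54 ± 0.07 (SE, edgeR adjusted p = 2.37e-05), higher in 4 of 4 libraries. Kcnj3, a pore subunit of the acetylcholine-gated potassium channel, differed by 0.53 ± 0.07 (SE, edgeR adjusted p = 8.18e-05). Of 23 tested ion channel genes, 4 were higher and 1 lower, beside 0.956% and 1.34% of all tested genes, and the median was 0.12. The lower one, Fgf12, a sodium channel modulator, differed by -2.20 ± 0.35 (SE, edgeR adjusted p = 0.000474) but was lower in 3 of 4 libraries, and 164 of its 279 UMIs in the other cardiomyocytes of the running library lay in 1 nucleus. Abcc9, a regulatory subunit of ATP-sensitive potassium channels, and Fgf13, another sodium channel modulator, were higher. Of 17 calcium handling genes, 4 were higher and 0 lower: the calcium pump gene Atp2a2 at 0.32, the calcium channel subunit genes Cacna2d1 at 0.26 and Cacnb2 at 0.21, and Trdn at 0.18 on the log2 scale. Among nuclei with 4000 to 12000 UMIs, Kcnd2 and Fgf12 were still called, and Kcnj3, Abcc9, Fgf13 and these 4 calcium handling genes were not.

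Metabolic and growth genes that differed were mostly higher. Beside the counts of this paragraph stand 0.956% higher and 1.34% lower of all tested genes. Of 29 fatty acid uptake and oxidation genes, 3 were higher and 0 lower (median log2 fold change 0.18): the fatty acid transport gene Slc27a1 at 0.51, the uncoupling protein gene Ucp3 at 0.53 and the medium-chain acyl-CoA dehydrogenase gene Acadm at 0.31. The coactivator Ppargc1a at 0.31 and the estrogen-related receptor Esrrb at 0.39 were the 2 of 18 metabolic regulators that were higher, with 0 lower. Among 24 glucose genes, Pfkfb1, a regulator of glycolytic flux, was higher at 0.81 and the phosphofructokinase gene Pfkp lower at -0.59. Erbb4, the cardiomyocyte receptor for neuregulin, stood at 2414, 1816, 1694 and 1528 CPM in the running infarct, sedentary infarct, running and sedentary libraries, against 1346, 1322, 1541 and 1259 CPM in the other cardiomyocytes, a log2 fold change of 0.46 ± 0.07 (SE, edgeR adjusted p = 0.000451). With Erbb4, the FoxO factor Foxo3 and its target Fbxo32 were the 3 higher of 19 insulin and growth genes, and 1 was lower. Of the higher metabolic and growth genes given here, Pfkfb1 was still called among nuclei with 4000 to 12000 UMIs, and Slc27a1, Ucp3, Acadm, Ppargc1a, Esrrb, Erbb4, Foxo3 and Fbxo32 were not.

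Other lists held few called genes, and over all tested genes 0.956% were higher and 1.34% lower. The respiratory chain, clock, heat shock, immediate early and hypoxia lists, with 29, 18, 22, 16 and 14 tested genes, held 0 called genes in either direction. The sarcomere list held 1 higher gene, the myosin light chain kinase Mylk3, and 1 lower, the myosin-binding protein gene Mybpc3, of 19, and the list of Z-disc, costamere and intercalated disc genes held 2 higher and 1 lower of 26. The cardiac transcription and splicing factors held 2 higher and 0 lower of 23, the adrenergic and cyclic nucleotide genes 2 higher and 1 lower of 21, and the atrial and conduction genes 1 lower, Nppa, of 9. The 5 higher of 18 identity genes were Trdn, Atp2a2, Fgf13, Corin, the protease that activates natriuretic peptides, and Ctnna3, a catenin of the intercalated disc, and the 1 lower was Mybpc3. Myh6 differed by 0.16 on the log2 scale (edgeR adjusted p = 0.0773).

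The genes with the largest differences that ran the same way in every library were mostly of low level. The G protein regulator gene Rgs13 stood at 216 CPM in the running infarct, 163 in the sedentary infarct, 165 in the running and 249 CPM in the sedentary library, against 97.6, 68.9, 102 and 149 CPM in the other cardiomyocytes, a log2 fold change of 0.92 ± 0.09 (SE, edgeR adjusted p = 9.39e-07). Its relatives Rgs21 and Rgs7 were also higher, at 1.39 ± 0.18 and 0.94 ± 0.14. Rp1, a microtubule-binding protein known from photoreceptors, stood at 150, 116, 83.5 and 66.9 CPM against 30.7, 37.8, 51.1 and 29.9 CPM, a difference of 1.31 ± 0.15 (SE, edgeR adjusted p = 9.35e-06). The thiamine transporter gene Slc35f3 at 1.77, Csrnp3 at 1.52, the secreted BMP antagonist Vwc2 at 0.93 and the ciliary gene Cfap61 at 0.81 complete the higher set. Slc35f3 rests on few counts, with 1 UMI in the running infarct library and 12 of 19 UMIs of the sedentary infarct library in 1 nucleus.

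On the lower side stood Tnfrsf12a, the receptor of the cytokine TWEAK, at 15.0 against 38.5 CPM in the running infarct, 6.51 against 33.0 in the sedentary infarct, 2.03 against 7.18 in the running and 5.08 against 13.4 CPM in the sedentary library (log2 fold change -1.60 ± 0.25, SE, edgeR adjusted p = 0.000357). Kctd16, an auxiliary subunit of GABA-B receptors, stood at 38.9 against 152, 22.1 against 113, 48.4 against 75.7 and 33.9 against 67.5 CPM in the same order. The complement protease gene Masp1 at -1.37, the sodium-calcium-potassium exchanger gene Slc24a2 at -1.18, the scaffold genes Cnksr1 at -1.18 and Grip1 at -1.05, and Nppa and Ankrd23, complete the lower set.

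**Figure D3:**
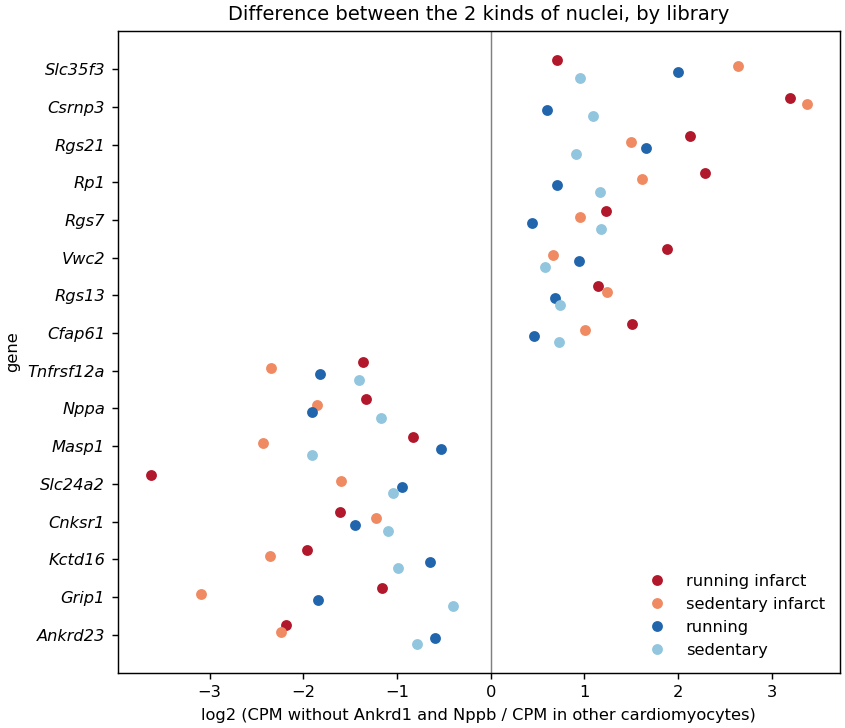
Log2 of the level in nuclei without Ankrd1 and Nppb over the level in the other cardiomyocytes for the 8 higher and 8 lower genes of largest difference, 1 point per library. The points of Rp1 run from the running library, at 83.5 against 51.1 CPM, to the running infarct library, at 150 against 30.7 CPM, and all 16 genes have their 4 points on one side of even.

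Infarct was compared with no infarct within each arm, and the 2 arms share no library. In these nuclei Pdk4, Irs2, Nr4a3 and Fbxo32 were lower in both infarct libraries, and Tmx1, Idh3a and Socs2 were higher. Genes with at least 100 UMIs over both libraries were measured, and a ratio of at least 1.5 either way was counted. For running infarct over running, 392 of 5817 genes were higher (6.74%) and 843 lower (14.5%), and for sedentary infarct over sedentary, 372 of 7790 were higher (4.78%) and 944 lower (12.1%). In both arms together, 44 of 5811 genes were higher (0.757%) and 166 lower (2.86%). Counting intervals lay wholly beyond 1.5-fold for 42 higher and 65 lower genes in the running arm and for 50 higher and 144 lower in the sedentary arm. The median log2 ratio of measured genes was -0.05 in each arm.

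Pdk4, the kinase that shuts off pyruvate dehydrogenase when fat is burned, had 6 UMIs or 18.0 CPM (6.59 to 39.1) in the running infarct and 45 UMIs or 58.6 CPM (42.7 to 78.4) in the sedentary infarct library. It had 406 CPM (385 to 428) in the running and 251 CPM (238 to 264) in the sedentary library. The level was thus 22.6-fold lower (10.4 to 61.7) in the running arm and 4.28-fold lower (3.19 to 5.90) in the sedentary arm, where 17 of the 45 infarct UMIs lay in 1 nucleus. In the other cardiomyocytes Pdk4 stood at 30.7 and 60.7 CPM in the running and sedentary infarct libraries, against 331 and 202 CPM in the running and sedentary libraries. Within Y-positive nuclei the ratios of Pdk4 were 0.0304 (0.000769 to 0.170), on 1 infarct UMI, in the running arm and 0.195 (0.0526 to 0.505) in the sedentary arm. Within Y-negative nuclei they were 0.0956 (0.0114 to 0.356), on 2 infarct UMIs, and 0.146 (0.0987 to 0.208). The reference level was uneven, with values given below for running over sedentary. Pdk4 was several-fold higher in Y-positive than in Y-negative nuclei of the running library, and the reverse held in the sedentary library. Each of these libraries held 2 hearts, so what belongs to the group and what to 1 heart cannot be told apart.

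Irs2, an insulin receptor substrate, stood at 15.0 CPM in the running infarct and 20.8 CPM in the sedentary infarct library, against 71.9 CPM in the running and 81.9 CPM in the sedentary library. It was 4.80-fold lower (2.03 to 14.9) and 3.93-fold lower (2.40 to 6.94), and no interval of an infarct library reached the level of a library without infarct. Nr4a3, an orphan nuclear receptor induced early by hormones and exercise, had 2 UMIs in the running infarct and 1 in the sedentary infarct library, against 36.8 CPM in the running and 26.1 CPM in the sedentary library, ratios of 0.163 (0.0195 to 0.600) and 0.0499 (0.00126 to 0.282). Fbxo32, the ubiquitin ligase atrogin-1 and a FoxO target, stood at 210 and 245 CPM against 427 and 411 CPM, 2.04-fold lower (1.60 to 2.63) and 1.68-fold lower (1.45 to 1.96). The zinc finger gene Zfp949 was 3.99-fold lower (1.53 to 14.8) and 2.24-fold lower (1.38 to 3.90), and in the other cardiomyocytes its ratios were 0.870 and 1.17.

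Among genes higher in both arms, Tmx1, a thioredoxin-like protein of the endoplasmic reticulum, stood at 120 CPM in the running infarct and 104 CPM in the sedentary infarct library, against 46.1 CPM in the running and 47.2 CPM in the sedentary library. It was 2.60-fold higher (1.79 to 3.70) and 2.20-fold higher (1.7 to 2.84), and 1.32-fold (1.04 to 1.67) and 1.63-fold (1.31 to 2.03) in the other cardiomyocytes. Idh3a, a subunit of the citric acid cycle enzyme isocitrate dehydrogenase, stood at 129 and 139 CPM in the running and sedentary infarct libraries, against 71.6 and 85.5 CPM in the running and sedentary libraries. Its ratios were 1.80 (1.27 to 2.50) and 1.63 (1.31 to 2.01), beside 0.949 (0.778 to 1.15) and 1.24 (1.04 to 1.48) in the other cardiomyocytes. Whether the ratios of Tmx1 and Idh3a differ between both kinds of nuclei was not tested. Socs2, an inhibitor of growth hormone signalling, stood at 222 and 246 CPM against 135 and 138 CPM, ratios of 1.64 (1.27 to 2.10) and 1.78 (1.51 to 2.09). The remaining higher genes were of smaller ratio: Rabgap1l at 1.52 and 1.46, the actin regulator Raph1 at 1.48 and 1.60 and Cacna2d1 at 1.39 and 1.42 in the running and sedentary arms.

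**Figure D4:**
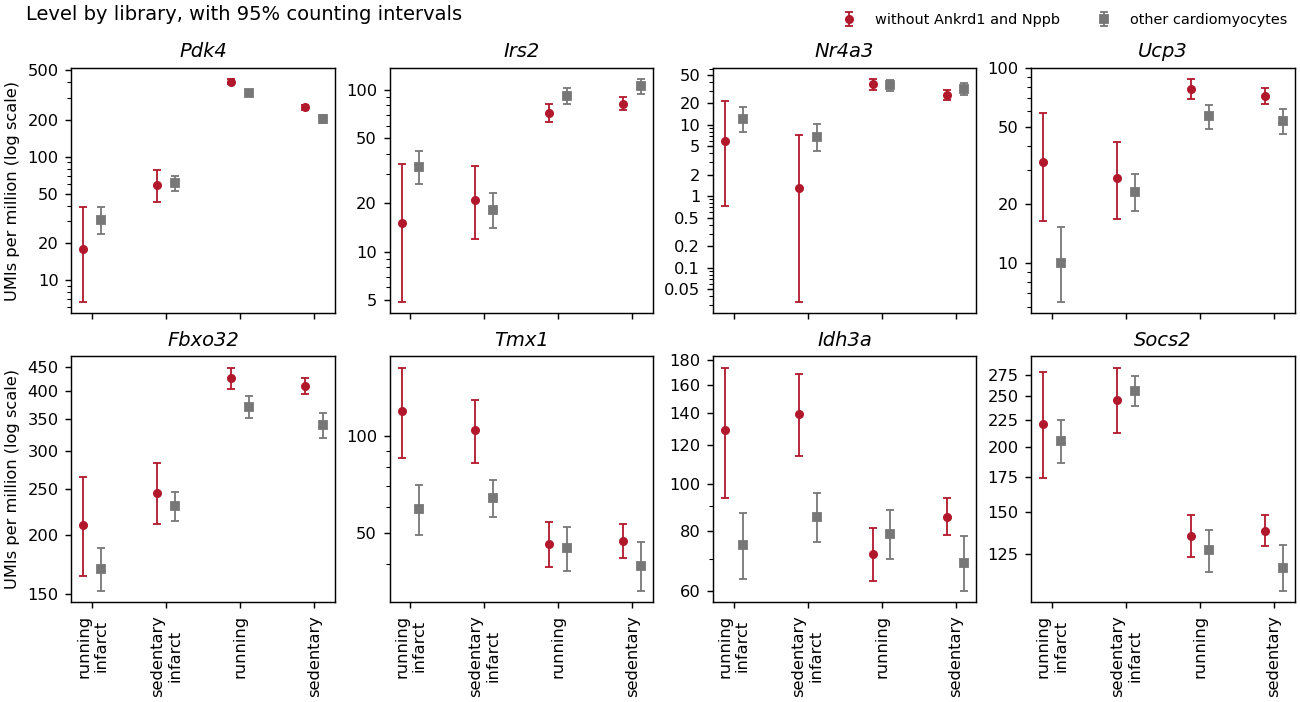
Level of 8 genes in nuclei without Ankrd1 and Nppb (circles) and in the other cardiomyocytes (squares), in CPM on a log scale, for the 4 libraries. Bars are exact 95% Poisson intervals. The circles of Pdk4 stand at 18.0 CPM in the running infarct and 58.6 CPM in the sedentary infarct library, below 406 CPM in the running and 251 CPM in the sedentary library, and those of Tmx1 stand at 120 and 104 CPM above 46.1 and 47.2 CPM.

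Of 24 fatty acid genes measured in running infarct over running, 0 were at least 1.5-fold higher and 3 lower, a share no higher than the 14.5% of all genes, with a median log2 ratio of -0.26 beside -0.05 for all genes, and of 26 in the sedentary arm 0 were higher and 6 lower (median -0.35). Ucp3 stood at 32.9 CPM in the running infarct and 27.3 CPM in the sedentary infarct library, against 77.9 CPM in the running and 71.6 CPM in the sedentary library, and the lipid uptake receptor gene Cd36 at 1279 and 1010 against 1519 and 1581 CPM. In the other cardiomyocytes 13 of 25 fatty acid genes were at least 1.5-fold lower in the running arm (median -0.62) and 4 of 25 in the sedentary arm (median -0.21). Over all genes measured in the other cardiomyocytes the median was -0.03 in each arm, and the share past 1.5-fold was not counted. Of 17 insulin and growth genes, 1 was higher and 5 lower in the running arm, and 1 higher and 3 lower in the sedentary arm. Over all measured genes, 6.74% were higher and 14.5% lower in the running arm, and 4.78% and 12.1% in the sedentary arm. With Irs2 and Fbxo32, the factor gene Foxo1 was lower in both, at 77.9 and 66.4 CPM in the running and sedentary infarct libraries, against 120 and 122 CPM in the running and sedentary libraries. The insulin-responsive glucose transporter gene Slc2a4 was the other way, at 86.9 and 85.9 CPM against 55.3 and 51.5 CPM, with ratios of 1.57 (1.02 to 2.33) and 1.67 (1.26 to 2.18). The whole glucose list had 4 higher and 2 lower of 20 in the running arm (median 0.00) and 3 higher and 0 lower of 23 in the sedentary arm (median 0.13).

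The stress and fetal list without Ankrd1 and Nppb had 2 higher and 0 lower of 10 measured genes in running infarct over running (median 0.45), and 1 higher and 1 lower of 11 in sedentary infarct over sedentary (median -0.01). In the other cardiomyocytes it had 10 higher and 0 lower of 14 (median 1.21) and 6 higher and 1 lower of 14 (median 0.37). The median over all genes measured in the other cardiomyocytes was -0.03 in each arm, and their share past 1.5-fold was not counted. Over all genes measured in nuclei without Ankrd1 and Nppb, 6.74% were higher and 14.5% lower in the running arm. In the sedentary arm these shares were 4.78% and 12.1%. Xirp2 had ratios of 1.06 (0.883 to 1.26) in the running and 0.938 (0.834 to 1.05) in the sedentary arm in nuclei without Ankrd1 and Nppb, and 2.79 (2.61 to 2.97) and 1.79 (1.69 to 1.90) in the other cardiomyocytes. Both kinds of nuclei were chosen by their Ankrd1 and Nppb counts, and the difference between their ratios was not tested.

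The contractile, electrical and respiratory lists had medians within 0.21 of 0 on the log2 scale. Beside the counts of this paragraph stand 6.74% higher and 14.5% lower of all measured genes in the running arm. In the sedentary arm these shares were 4.78% and 12.1%. The sarcomere list had 0 higher and 0 lower of 18 in the running arm (median 0.07) and 1 higher and 0 lower of 18 in the sedentary arm (median 0.21), the higher one being the tropomyosin gene Tpm1 at 1.61-fold (1.53 to 1.69). Ion channel genes had 0 higher and 1 lower of 16 (median 0.02) and 3 higher and 0 lower of 18 (median 0.14), and the Z-disc, costamere and intercalated disc genes 3 higher and 1 lower of 25 (median 0.15) and 4 higher and 0 lower of 25 (median 0.19). The calcium list had 1 higher and 0 lower of 17 (median 0.14) and 0 higher and 1 lower of 17 (median 0.08), and the respiratory chain list 3 higher and 1 lower of 29 (median 0.02) and 0 of 29 either way (median -0.00). Of the cardiac transcription and splicing factors, 1 was higher and 1 lower of 20 in the running arm and 0 higher and 2 lower of 20 in the sedentary arm. The adrenergic and cyclic nucleotide list had 2 higher and 3 lower of 19 in the running arm and 0 higher and 1 lower of 19 in the sedentary arm, and the metabolic regulators 0 higher and 2 lower of 16 and 0 of 17 either way. Immediate early genes, which include Nr4a3, had 0 higher and 4 lower of 5 (median -0.77) and 0 higher and 4 lower of 8 (median -0.53), and hypoxia genes 1 higher and 1 lower of 7 and 0 higher and 2 lower of 8. Clock genes had 0 higher and 6 lower of 14 in the running arm (median -0.34) and 4 higher and 2 lower of 16 in the sedentary arm (median 0.16). Hand2, a factor of the developing heart, was lower in both, at 44.9 and 58.6 CPM in the running and sedentary infarct libraries, against 101 and 97.5 CPM in the running and sedentary libraries.

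Other genes were chosen for their ratio in a single arm, and the difference between the arms was not tested. In running infarct over running, the actin crosslinker gene Flnc stood at 183 against 67.5 CPM, 2.71-fold higher (2.01 to 3.60), and the Z-disc gene Pdlim3 at 159 against 62.9 CPM, 2.52-fold higher (1.83 to 3.42). The kinase gene Mapkapk3, 2.84-fold higher (1.99 to 3.97), had 21 of its 45 infarct UMIs in 1 nucleus. Nr4a1, a nuclear receptor of the same family as Nr4a3, was 5.13-fold lower (3.23 to 8.69), at 53.9 against 276 CPM, and the mitochondrial carrier gene Slc25a34 had 1 UMI in the running infarct library against 166 in the running library, a ratio of 0.0623 (0.00157 to 0.352). In sedentary infarct over sedentary, the titin cap gene Tcap stood at 536 against 186 CPM, 2.89-fold higher (2.57 to 3.24), and the clock output gene Dbp at 134 against 20.7 CPM, 6.49-fold higher (4.94 to 8.51). Colq, the collagen tail of acetylcholinesterase, stood at 6.51 against 47.2 CPM, 7.26-fold lower (3.07 to 22.5).

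Heat shock genes were lower in the sedentary infarct than in the sedentary library, and also lower in the running than in the sedentary library, and both comparisons use that same sedentary library. Of 20 measured, 2 were at least 1.5-fold higher and 14 lower in sedentary infarct over sedentary (median log2 ratio -1.06), beside 4.78% and 12.1% of all measured genes. For running infarct over running, 2 were higher and 3 lower of 17 (median -0.39), beside 6.74% and 14.5% of all measured genes. Hsph1, an Hsp110 chaperone, stood at 12.0 CPM in the running infarct, 6.51 in the sedentary infarct, 22.3 in the running and 73.1 CPM in the sedentary library. Hspe1, the mitochondrial co-chaperonin, stood at 32.9, 20.8, 46.7 and 91.6 CPM, and Hsp90aa1, an inducible Hsp90, at 32.9, 26.0, 53.3 and 114 CPM in the same order. The sedentary library was the highest for all 3. The co-chaperone genes Dnaja1, at 53.9, 46.9, 70.7 and 158 CPM, and Bag3, at 225, 217, 312 and 480 CPM, ran the same way. The small heat shock protein genes Hspb6 and Hspb7 did not, with Hspb7 at 132, 113, 85.5 and 74.0 CPM.

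In the sedentary library, Hsph1 stood at 112 CPM in Y-positive nuclei and 25.4 CPM in Y-negative nuclei. Its running over sedentary ratio was 0.149 (0.101 to 0.212) within the Y-positive and 1.22 (0.780 to 1.88) within the Y-negative nuclei, that of Hsp90aa1 0.332 and 0.954, and that of Hspe1 0.371 and 0.792. Its sedentary infarct over sedentary ratio was 0.0318 (0.000802 to 0.178), on 1 infarct UMI, within the Y-positive nuclei and 0.269 (0.0540 to 0.826), on 3, within the Y-negative. The sedentary library held 2 hearts, so what belongs to the group and what to 1 heart cannot be told apart. Of the 22 listed heat shock genes, 18 had a promoter in the RefSeq table, and 10 of these, 55.6%, held either heat shock element of the kind shown above, beside 14.5% of 27025 genes with a promoter. Among genes given above that had a promoter in the table, Hsph1, Hspe1, Dnaja1 and Hspb6 held an element, and Bag3 and Hspb7 held none. Whether the element goes with the levels was not tested.

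**Figure D5:**
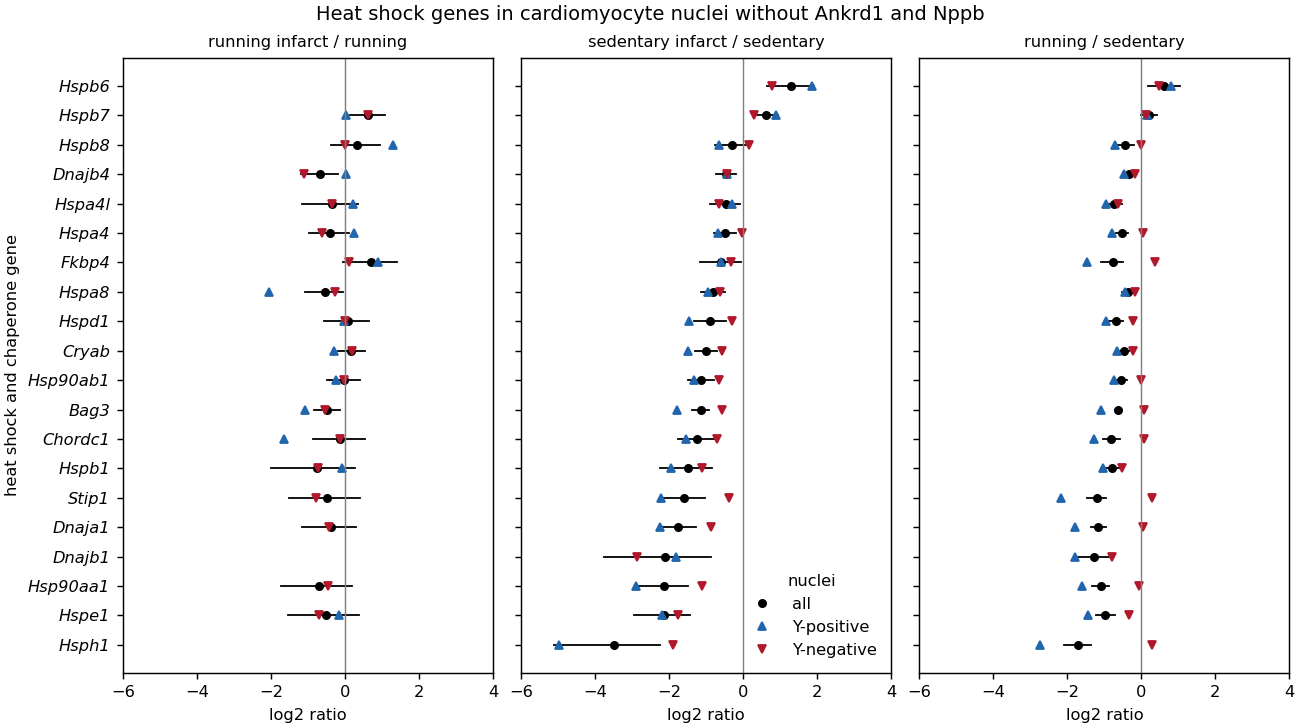
Log2 ratios of heat shock and chaperone genes in nuclei without Ankrd1 and Nppb for running infarct over running, sedentary infarct over sedentary and running over sedentary, over all nuclei with exact 95% intervals (black), in Y-positive nuclei (blue) and in Y-negative nuclei (red). Genes under 100 UMIs over both libraries, and ratios with 0 UMIs in the first library, are not drawn. For Hsph1 the running over sedentary ratio is 0.149 for Y-positive and 1.22 for Y-negative nuclei, on either side of even.

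Running was compared with no running within the infarct and the other libraries, and these 2 comparisons share no library. Few genes differed by 1.5-fold in both. For running infarct over sedentary infarct, 90 of 2144 measured genes were higher (4.2%) and 117 lower (5.46%), and for running over sedentary, 235 of 8933 were higher (2.63%) and 276 lower (3.09%). The median mitochondrial share of the nuclei was 4.76% in the running infarct, 5.66% in the sedentary infarct, 7.82% in the running and 5.06% in the sedentary library, and with at most 5% of such UMIs 244 of 5480 genes were higher and 710 lower for running over sedentary. In both together, 4 of 2144 were higher (0.187%) and 0 lower (0%). The median log2 ratio of measured genes was -0.02 with and -0.03 without infarct.

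Prrg1, a vitamin K-dependent membrane protein, stood at 165 CPM in the running infarct against 85.9 CPM in the sedentary infarct library, and at 174 CPM in the running against 98.0 CPM in the sedentary library. It was 1.92-fold higher (1.32 to 2.79) with infarct and 1.78-fold higher (1.58 to 1.99) without. Prrg1 was also a leading gene of group 8 below, with 107 of its 109 nuclei from the running library. That library held 2 hearts, so in the ratio without infarct group and heart cannot be told apart. Nckap5, a microtubule-binding protein gene, stood at 869 against 579 CPM with infarct and 965 against 676 CPM without, ratios of 1.5 (1.29 to 1.74) and 1.43 (1.36 to 1.49). The membrane scaffold gene Magi3 had ratios of 1.42 (1.24 to 1.63) and 1.31 (1.25 to 1.37), and the ubiquitin ligase gene Marchf3 2.12 (1.54 to 2.90) and 1.37 (1.24 to 1.5). All 4 were higher in both running libraries whether Y-positive or Y-negative nuclei were taken, which the naming rule required of them. In the other cardiomyocytes the ratios with infarct were 1.16 (0.959 to 1.41) for Prrg1 and 0.981 (0.918 to 1.05) for Nckap5.

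Lower with running in both comparisons were Lrpprc, which stabilises mitochondrial messenger RNAs, at 135 against 224 CPM with infarct and 153 against 192 CPM without, and Txlng, a syntaxin-binding protein, at 62.9 against 131 and 97.4 against 124 CPM. The actin-binding gene Smtn stood at 449 against 622 and 515 against 606 CPM, and Abhd18, a hydrolase-like gene, at 359 against 491 and 362 against 464 CPM. Without infarct these were 1.26-fold (1.13 to 1.39), 1.27-fold (1.12 to 1.45), 1.18-fold (1.11 to 1.25) and 1.28-fold (1.20 to 1.37) lower, all under the 1.5-fold limit.

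Running over sedentary was led by Nr4a1, at 276 against 35.9 CPM and 7.70-fold higher (6.63 to 8.98), with ratios of 15.5 among Y-positive and 2.13 among Y-negative nuclei. The light chain kinase gene Mylk4 stood at 719 against 281 CPM, 2.56-fold higher (2.40 to 2.72), with ratios of 3.60 among the Y-positive and 1.62 among the Y-negative. Dbp stood at 65.8 against 20.7 CPM, 3.18-fold higher (2.54 to 4.00). The ratios of Nr4a1 and Mylk4 were thus larger among Y-positive nuclei. Both were leading genes of group 8 below, with 107 of its 109 nuclei from the running library, which also held 2 hearts. Pdk4 differed in direction: it stood at 626 CPM in the running against 73.4 CPM in the sedentary library among Y-positive nuclei and at 78.9 against 485 CPM among Y-negative nuclei. On the lower side, the magnesium transporter gene Slc41a3 stood at 14.2 against 56.2 CPM, 3.96-fold lower (2.93 to 5.46), while Muc16, a mesothelial mucin, and Grip1 had 27 of 117 and 31 of 167 sedentary UMIs in 1 nucleus. Slc41a3 was also a leading gene of group 2 below, with 206 of its 235 nuclei from the sedentary library. That library held 2 hearts, so what belongs to the group and what to 1 heart cannot be told apart.

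With infarct, the microfibril-associated gene Thsd4 stood at 261 CPM in the running infarct against 131 CPM in the sedentary infarct library, 1.98-fold higher (1.47 to 2.67), with 22 of its 87 running infarct UMIs in 1 nucleus. The clock gene Per3 stood at 59.9 against 167 CPM, 2.78-fold lower (1.73 to 4.71), the protein kinase A inhibitor gene Pkia at 126 against 286 CPM, 2.28-fold lower (1.63 to 3.25), and the actin-regulatory gene Cyfip2 at 77.9 against 184 CPM, 2.36-fold lower (1.54 to 3.73). In the other cardiomyocytes the ratios were 1.08 (0.962 to 1.21) for Pkia and 0.919 (0.795 to 1.06) for Cyfip2.

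Clock genes, whose RNA cycles over the day, had ratios past 1.5-fold in both comparisons. Of 6 measured in running infarct over sedentary infarct, 0 were higher and 3 lower (median -0.67), and of 18 in running over sedentary, 4 were higher and 2 lower (median 0.20). Beside these and the list counts below stand 4.2% higher and 5.46% lower of all measured genes with infarct. Without infarct these shares were 2.63% and 3.09%. Arntl, the activator of the clock, stood at 41.9 CPM in the running infarct, 10.4 in the sedentary infarct, 10.4 in the running and 37.9 CPM in the sedentary library. Its output gene Dbp was high where Arntl was low, at 53.9, 134, 65.8 and 20.7 CPM in the same order. The hour of collection of each library is not given in the sources used here. Immediate early genes had 4 higher and 0 lower of 11 in running over sedentary (median 0.23), and heat shock genes 1 higher and 12 lower of 20 (median -0.71). Hypoxia genes had 0 higher and 4 lower of 10 (median -0.39), among them Egln3, an oxygen-sensing hydroxylase, at 19.4 CPM in the running against 65.5 CPM in the sedentary library. Egln3 was a leading gene of group 2 below, which came mostly from the sedentary library, so the same limit applies as for Slc41a3. The sarcomere, identity, calcium, glucose, respiratory chain, metabolic regulator and cardiac factor lists held 0 genes past 1.5-fold either way in running over sedentary. The stress and fetal list had 2 higher and 3 lower of 13 (median -0.16) and the fatty acid list 1 higher and 2 lower of 26. The Z-disc list had 1 higher and 1 lower of 26, the ion channels 1 and 0 of 18, and the adrenergic and insulin lists 0 and 1 of 20 and of 17. In running infarct over sedentary infarct, the sarcomere, identity, calcium, ion channel and metabolic regulator lists held 0, over 17, 18, 12, 9 and 9 measured genes. There the stress list had 2 higher and 0 lower of 7, the Z-disc list 2 and 0 of 22, the insulin list 1 and 2 of 10, the heat shock list 1 and 0 of 7 and the cardiac factors 1 and 0 of 17. The fatty acid and glucose lists had 0 higher and 1 lower of 12 each, the adrenergic list 0 and 1 of 13 and the respiratory chain list 0 and 1 of 18.

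Grouping the nuclei by their expression gave 8 groups, which describe how they varied among themselves and are not a test. Group 1, with 379 nuclei or 33.1%, was led by Gbp6, Bdh1, a ketone body enzyme, Glul, glutamine synthetase, and Klf15, a metabolic transcription factor, and 8.18% of its nuclei were Y-positive. Group 2, with 235 nuclei, was led by Egln3, Ankrd23, Hsph1 and Hspe1 and was 75.7% Y-positive, and 206 of its nuclei came from the sedentary library, so it too may be that library. Group 5, with 211 nuclei, was led by Rp1, Rgs7 and Thsd4 and was 29.9% Y-positive. It held 25 nuclei of the running infarct, 38 of the sedentary infarct, 69 of the running and 79 of the sedentary library. These were 44.6, 41.3, 17.8 and 13% of the nuclei without Ankrd1 and Nppb, a larger share in both infarct libraries. Group 1 made up 21.4, 35.9, 29.1 and 36.3% in the same order, so it was present with and without infarct. Group 8, with 109 nuclei, was led by Nr4a1, Pdk4, Mylk4 and Prrg1 and was 87.2% Y-positive, and 107 of its nuclei came from the running library, so it may be that library and not a kind of nucleus. The remaining 4 groups are those with RNA of other cells given above.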

How the data were processed

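Single-nucleus RNA of Hoechst-sorted nuclei from frozen ventricles was sequenced with 10x 3' v3.1 chemistry, per the labels' protocols. The deposited matrices hold UMI counts per gene and barcode, made by the authors with Cell Ranger 7.1 on GRCm39, per the submitters' processing notes. No other normalization was found in them: all values are whole numbers.

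Members and gene lists were chosen with earlier results of these data known. Counts were summed over nuclei with Python 3.11.15, numpy 2.4.6, scipy 1.17.1 and pandas 2.3.3. Members were set against other cardiomyocytes with edgeR 4.0.16 in R 4.3.3 (quasi-likelihood test, TMM scaling, library as block, Benjamini-Hochberg adjustment, expressed genes by edgeR's filter). In simulated counts, 197 of 200 genes changed 2-fold were recovered, and 13 unchanged genes were called, of 13640 tested. The changed genes were drawn only from those above a UMI minimum, with negative binomial noise on the sums. Recovery of genes with few UMIs, or with UMIs clumped in single nuclei, was therefore not tried. DESeq2 1.42.0 was an alternative. Conditions had 1 library each and were described with no test, using exact Poisson and conditional binomial intervals. Doublets were not removed: Scrublet's threshold did not work, so leaving out the highest scores, at a rate set by the number of barcodes, was an alternative. Groups of nuclei came from scanpy 1.11.5.

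Genes were named by rule: 6 higher and 6 lower in both infarct arms, 4 and 4 with running in both comparisons, 3 and 3 in each comparison, each by the interval bound nearer to even, and 8 and 8 between both kinds of cardiomyocyte by fold change with the same direction in 4 libraries. Genes of the rule, Y-linked, mitochondrial and numbered genes, genes moving differently in Y-positive and Y-negative nuclei and genes at over 5 times the CPM in other cells were left out. Other genes named from the lists were chosen after their values were seen. Alternatives left out libraries, doublets or shallow nuclei and changed the thresholds. Some genes that the rule chose are not reported here.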

Additional observations from a re-analysis of the deposited data

Results flagged for a closer look

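Per3, a clock gene, had infarct ratios of opposite direction in the 2 arms, and the difference between the arms was not tested. Its log2 ratio was -1.15 for running infarct over running, on 20 infarct UMIs, and 0.70 for sedentary infarct over sedentary.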

How the results depend on the processing

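Infarct libraries hold the fewest nuclei, so depth limits both infarct comparisons, and counts of genes past 1.5-fold followed the UMI minimum. With 20 or more UMIs they were (higher, then lower) 1454 and 2579 for running infarct over running, 1254 and 2324 for sedentary infarct over sedentary, 832 and 1074 for running infarct over sedentary infarct, and 914 and 854 for running over sedentary. With 300 or more they were 84 and 184, 85 and 302, 9 and 19, and 67 and 83 in that order, and with intervals wholly beyond 1.5-fold 42 and 65, 50 and 144, 10 and 5, and 38 and 35. Other alternatives also changed how many genes were measured, 5817, 7790, 2144 and 8933 as reported. In Y-positive nuclei 631 and 1326 of 3931 passed for running infarct over running and 421 and 496 of 7015 for running over sedentary. In Y-negative nuclei 139 and 214 of 2615 passed for running infarct over running, 215 and 499 of 4550 for sedentary infarct over sedentary, and 140 higher of 5230 for running over sedentary. With at most 5% mitochondrial UMIs 73 and 113 of 1211 passed for running infarct over running, 53 and 63 of 1015 for running infarct over sedentary infarct, and 710 lower of 5480 for running over sedentary. For running infarct over sedentary infarct, 58 of 1175 were higher with Ttn plus Ryr2 at 3% or more, 49 higher and 61 lower of 1020 with 0 UMIs only, and 52 higher of 1592 with other-cell markers under 0.25%, an alternative chosen after seeing the data, which gave 601 lower of 6258 for sedentary infarct over sedentary. With every nucleus weighing the same, 420 were higher for running over sedentary. Beyond the genes measured, the cause was not tested.

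The share of cardiomyocyte nuclei kept its order under every alternative run. It was 29.5, 35.8, 65.3 and 78.9% after thinning and 12.8, 13.8, 37.0 and 54.1% with 0 UMIs only (running infarct, sedentary infarct, running, sedentary), and 17.9, 19.8, 50 and 69.1% with at most 5% mitochondrial UMIs.

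Between both kinds of cardiomyocyte, 0 genes were higher and 0 lower in edgeR with no replicate block (741 at an unadjusted p under 0.05, against 1577 with the block). The block is the library both sums come from. The calls were 25 higher and 65 lower at 4000 to 12000 UMIs, 53 and 107 with other-cell markers under 0.25%, 84 and 75 with DESeq2 (565 at an unadjusted p under 0.05), and with each library left out in turn 31 to 163 higher and 29 to 209 lower. Of the 310 called genes, 59 were called without the sedentary library and 159 by DESeq2. No paired analysis was possible between conditions because each group is 1 library.

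Sign changes were counted only for log2 ratios of named genes that were past 1.5-fold as reported, and 12 were found. For running infarct over running these were Rp1 at -0.80 with Ttn plus Ryr2 at 3% or more and, in Y-positive nuclei, Rp1 at -0.067, Rgs7 at -1.63, Tcap at -1.59 and Pde8a at 0.073, and Rgs7 at -0.41 with other-cell markers under 0.25%. For sedentary infarct over sedentary Kctd16 stood at 0.060 with Ttn plus Ryr2 at 3% or more and 0.021 with 0 UMIs only. For running over sedentary in Y-negative nuclei Pdk4 stood at -2.62, Flnc at 0.56, Bag3 at 0.078 and Ankrd23 at 0.075. Under all alternatives, 2935 values of named genes moved by less than their counting error and 787 by more.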
